A study of Homo sapiens with 6 samples.

Results

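The genes described here encode collagens, the matrix protease MMP2 and its inhibitor TIMP1. They were chosen as 9 probes given by identifier and gene, COL1A1, COL1A2, COL3A1, COL4A1, COL4A2, COL5A1, COL6A1, MMP2 and TIMP1, and 8 of the 9 were among the 24526 probes of the deposited table. The COL1A2 probe (ILMN_1785272) was not analysed here. Expression was measured on 1-colour Illumina bead arrays in OCM1A, an established human melanoma line that the labels place in the uvea. Cells grown in RPMI-1640 with serum were separated by flow cytometry after an MDR1 shift assay, an antibody-based test for the drug efflux pump ABCB1 (MDR1, P-glycoprotein). The series holds 3 ABCB1-positive (ABCB1pos) and 3 ABCB1-negative (ABCB1neg) fractions from 3 independent assays. All cells of both groups came from this 1 line with no other treatment. Fractions of the same replicate number are taken here as 1 assay, which the labels do not state.

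Collagens are built from chains that wind into a helix inside the cell, are hydroxylated and folded by dedicated enzymes, and are then secreted and crosslinked. Type IV collagen, made mainly of the COL4A1 and COL4A2 chains, forms the sheet of basement membranes, type VI collagen forms beaded filaments next to them, and types I, III and V form the fibrils of connective tissue. MMP2 (gelatinase A) cuts type IV collagen and denatured fibrillar collagen, and TIMP1 is a secreted protein that blocks matrix metalloproteinases.

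The arrays detected between 12846 and 13183 of the 24526 probes at a detection p under 0.05, and the 13186 probes detected on at least 3 of the 6 arrays were tested. The sorted gene was higher in the positive fraction. The ABCB1 probe had signals of 408, 514 and 188 on the positive arrays against 78.4, 72.0 and 99.0 on the negative arrays, which gave a log2 difference of 1.57 with an SE of 0.20 (limma adjusted p = 0.00204). Of 7 melanocytic marker genes with a probe, 6 (MITF, TYR, TYRP1, PMEL, MLANA and SOX10) were detected on all 6 arrays. Their log2 differences lay between -0.17 and 0.28, none passed the test, and S100B was not detected on any array. The summed signal of the 6 markers was 59694 to 74416 on the negative and 62788 to 90999 on the positive arrays. The fibroblast genes DCN, LUM, PDGFRB and THY1 were not detected on any array, so 0 of 4 were seen in either fraction. Of 4 blood and endothelial genes, CD14 and PECAM1 were detected on all 6 arrays and did not pass the test, and PTPRC and CDH5 were detected on none. PECAM1 was near background, with signals of 24.9 to 63.4 and detection p up to 0.0497. Another CD14 probe was detected on none of the 6 arrays.

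Of the 3 collagen transcripts detected in both fractions, COL4A1 and COL6A1 were lower in ABCB1-positive cells, and COL4A2 did not pass the test. MMP2 and TIMP1 did not pass it either. Of the 8 probes 6 were tested, and 5 of these were detected in both fractions. Among the 5, COL4A1 and COL6A1 fell (limma with the replicate number as a block, adjusted p under 0.05 over all tested probes), 0 rose and 3 did not pass. COL5A1, the remaining tested probe, had entered the test through its negative arrays alone, a filter that favours a difference, so it is described apart and not counted. Over all 13186 tested probes the same rule called 20.3%, with 9.2% of all tested probes lower and 11.1% higher in positive cells. The median log2 difference was -0.32 over the 5 probes and -0.02 over all tested probes. The probes were chosen with earlier results of these data known, so the counts describe them and carry no test of their own. With no block, limma called 5.15% of all probes, with 1.65% of all probes lower, and among the 5 probes it called the same 2, COL4A1 and COL6A1.

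**Figure D1:**
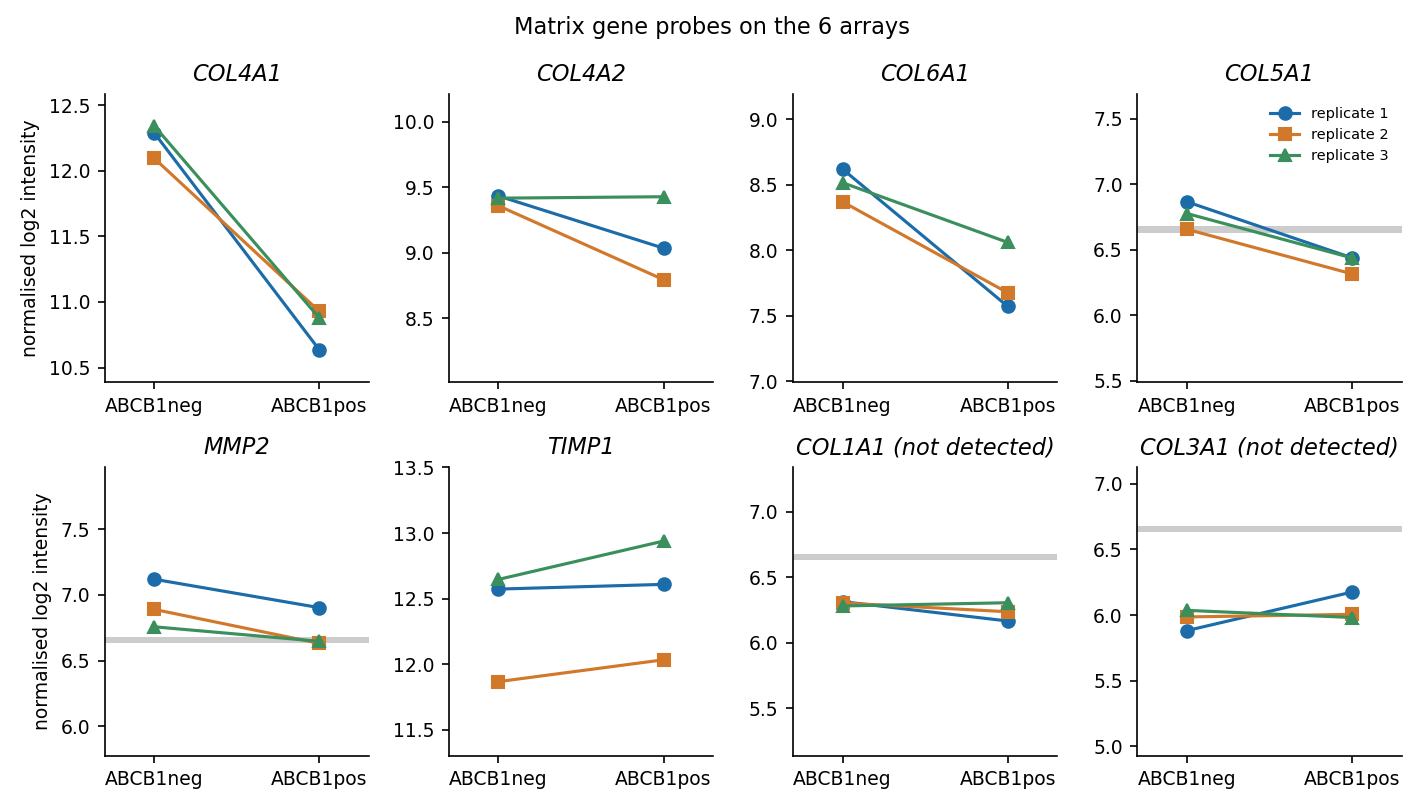
Normalised log2 intensity of the 8 probes on the negative (left) and positive (right) arrays; lines join arrays of the same replicate number, each panel spans the same height, and the grey band in 4 panels marks the lowest level at which any probe was detected. All 3 lines fall for COL4A1, COL6A1, COL5A1 and MMP2, and the COL1A1 and COL3A1 points lie below the band.

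COL4A1 and COL4A2 encode the chains that pair in type IV collagen and lie head to head on chromosome 13. In RefSeq on GRCh38.p14, COL4A1 runs on the minus strand over chr13:110148963-110307157 and COL4A2 on the plus strand over chr13:110307284-110513209. The 126 bases between their starts, at chr13:110307158-110307283, serve as the upstream region of both genes. They are shown for this shared position, and whether they bear on the array results was not tested. They are printed on the plus strand, so that COL4A1 starts to the left and COL4A2 to the right, with the CCAAT match in capitals.
COL4A1-COL4A2: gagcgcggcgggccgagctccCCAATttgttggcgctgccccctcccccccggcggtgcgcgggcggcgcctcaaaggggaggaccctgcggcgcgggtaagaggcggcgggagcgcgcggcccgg
This stretch is 80.2% G and C. It holds 1 match to CCAAT, which begins 22 bases from the COL4A1 start and ends 101 bases before the COL4A2 start, and 1 match to GGGCGG. It holds no match to TATAAA or TGANTCA, all read on both strands. Among 34796 RefSeq promoter windows of 300 bases, 34.6% hold CCAAT, 44.9% GGGCGG, 11.6% TATAAA and 7.73% TGANTCA. Windows were matched for COL4A1, COL4A2, COL5A1 and TIMP1, and those of COL5A1 and TIMP1 hold 2 GGGCGG matches each and none of the other 3 motifs.

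The COL4A1 probe (ILMN_1653028) had background-subtracted signals of 4738, 3676 and 6505 on negative arrays 1 to 3 and of 1721, 1623 and 1570 on positive arrays 1 to 3. Every positive array was below every negative array, and the positive signals were close to each other. These signals were not scaled between arrays, whose mean signals ran from 668 to 958. After quantile normalisation the log2 intensities were 12.29, 12.10 and 12.34 in negative and 10.64, 10.93 and 10.88 in positive arrays. The differences within assays were -1.65, -1.17 and -1.46, a mean of -1.43 ± 0.13 (SE, 95% interval -1.72 to -1.13), or 2.69-fold lower (limma adjusted p = 0.000811). With no block the limma adjusted p was 0.00676. Of the 13186 tested probes, COL4A1 had the 54th lowest log2 difference. The arrays do not tell fewer cells carrying a transcript from less of it per cell, and this holds for each fall below.

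COL4A2 (ILMN_1724994) did not pass the test. Its signals were 600.1, 516 and 837 on negative arrays and 503, 320 and 533 on positive arrays. The normalised log2 intensities of the negative arrays lay together at 9.43, 9.36 and 9.42. Those of the positive arrays were 9.03, 8.79 and 9.43, so positive replicate 3 stood at the level of the negative arrays and the groups overlapped. Differences within assays were -0.40, -0.56 and 0.01, and their mean was -0.32 ± 0.14 (SE, 95% interval -0.63 to -0.0021, limma adjusted p = 0.136). The unadjusted p was 0.0488. Without replicate 3 the log2 difference was -0.48 and passed (limma adjusted p = 0.0303). On the authors' scaled values, which set the mean signal of all arrays equal, the COL4A2 signals were 635, 606 and 688 in negative and 443, 377 and 581 in positive arrays. There the groups did not overlap, and the log2 difference was -0.42 (limma adjusted p = 0.0484). On those values the whole distribution was lower, with a median log2 difference of all tested probes of -0.11 against -0.02. Whether the COL4A1 and COL4A2 differences differ from each other was not tested.

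COL6A1 (ILMN_1732151, gene at chr21:45981770-46005048) encodes the alpha 1 chain of type VI collagen. Its signals were 312, 233 and 406 on negative and 126, 109 and 166 on positive arrays, and it was detected on all 6. The normalised log2 intensities were 8.62, 8.37 and 8.51 in negative and 7.57, 7.68 and 8.06 in positive arrays. All 3 positive arrays lay below the negative ones, with positive replicate 3 the nearest to them. Within assays the differences were -1.05, -0.69 and -0.46, with a mean of -0.73 ± 0.14 (SE, 95% interval -1.05 to -0.42), or 1.66-fold lower (limma adjusted p = 0.00917). Across the alternative fits the COL6A1 log2 difference ran from -1.01 to -0.57. Its unscaled positive signals were 40.5%, 46.6% and 40.9% of the negative signals of the same number. For COL4A1 these shares were 36.3%, 44.2% and 24.1%, and whether the 2 falls differ in size was not tested. With no block the limma adjusted p of COL6A1 was 0.0452. Without replicate 1 under the block it was 0.0594 at a log2 difference of -0.57. When single arrays were dropped from the fit with no block, the call was lost with any of 5 of them missing. The limma adjusted p was then 0.173 for ABCB1pos replicate 1, 0.0539 for ABCB1pos replicate 2, and 0.177, 0.0869 and 0.119 for ABCB1neg replicates 1, 2 and 3.

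COL5A1 (ILMN_1706505, gene at chr9:134641803-134844843) encodes the alpha 1 chain of type V collagen, which takes part in starting collagen fibrils. It was near the background. Its signals were 43.0, 25.2 and 49.6 on negative arrays, with detection p of 0.0301, 0.0497 and 0.0256. On positive arrays the signals were 14.6, 5.12 and 12.4, with detection p of 0.127, 0.194 and 0.114, so COL5A1 was not well above background on any positive array. The normalised log2 intensities were 6.87, 6.66 and 6.78 in negative and 6.44, 6.32 and 6.44 in positive arrays, with no overlap. The measured log2 difference was -0.37 ± 0.11 (SE, 95% interval -0.62 to -0.12, limma adjusted p = 0.0459), for a probe that was tested only because its negative arrays passed the detection filter. With the positive values raised to the lowest normalised level of any detected probe on their array, COL5A1 was at least 1.08-fold higher in negative cells. With no block the limma adjusted p was 0.139, and under the block leaving out any 1 replicate number took it past the threshold (limma adjusted p = 0.0637 to 0.305).

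**Figure D2:**
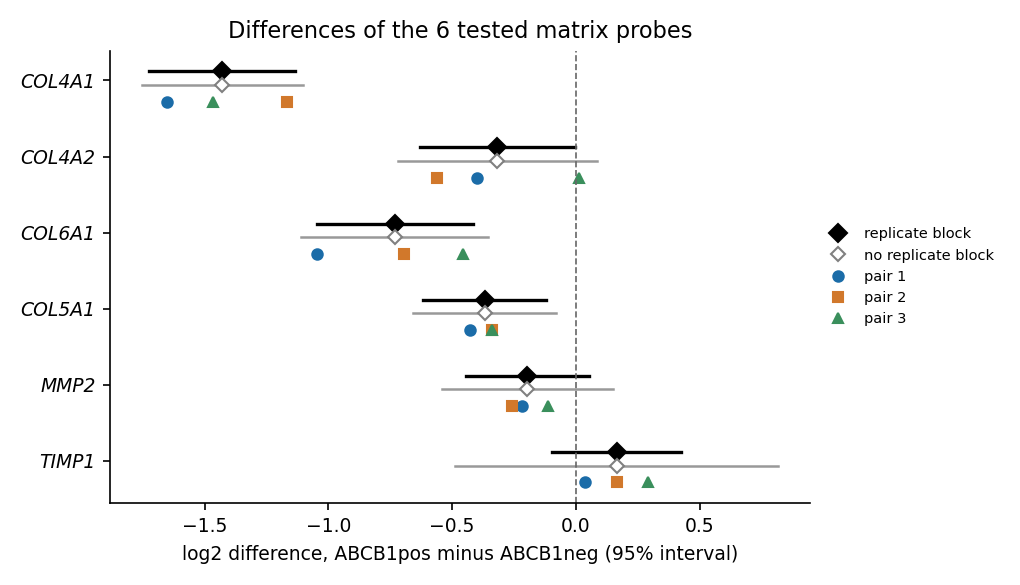
Log2 difference, positive minus negative, of the 6 tested probes: filled diamonds with 95% intervals are from the fit with the replicate block, open diamonds from the fit with none, and the symbols under them are the 3 assay pairs. Intervals of COL4A1 and COL6A1 lie below 0 in both fits. That of COL5A1 does too, but this probe was tested through its negative arrays alone, a filter that favours a difference. The COL4A2 interval reaches -0.0021 with the block, and the TIMP1 interval is much wider with no block.

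The remaining fibrillar collagens were not detected. COL1A1 (ILMN_1701308, gene at chr17:50184101-50201631) had signals of 6.72, 5.30 and 6.17 on negative and -1.79, 1.59 and 5.55 on positive arrays, with detection p between 0.199 and 0.399. COL3A1 (ILMN_1773079, gene at chr2:188974373-189012746) had signals of -14.0, -8.98 and -9.19 on negative and -1.30, -7.69 and -9.16 on positive arrays, with detection p between 0.380 and 0.901. Neither probe stood above background on any of the 6 arrays, so no fold is given. In a fit over all 24526 probes neither passed, with limma adjusted p of 0.754 for COL1A1 and 0.707 for COL3A1. Another probe assigned to COL1A2 (ILMN_2104356) was likewise detected on none of the 6 arrays.

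MMP2 (ILMN_1762106, gene at chr16:55478830-55506691) was dim in both fractions. Its signals were 65.9, 42.1 and 47.4 on negative arrays, where it was detected on all 3, and 49.5, 21.2 and 24.3 on positive arrays, where it was detected on 2. The positive array was the lower one in each of the 3 assays, but the groups overlapped. Normalised log2 intensities were 7.12, 6.89 and 6.76 in negative and 6.90, 6.63 and 6.65 in positive arrays. The log2 difference of -0.20 ± 0.11 (SE, 95% interval -0.45 to 0.05) did not pass (limma adjusted p = 0.235). With an offset of 16 in place of 50 in the background correction the log2 difference was -0.28, which did not pass either (limma adjusted p = 0.154).

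TIMP1 (ILMN_1711566, gene at chrX:47582436-47586789) was bright in both fractions, and its level differed more between assays than between fractions. Its signals were 5934, 3205 and 8045 on negative and 7375, 3547 and 7418 on positive arrays. The arrays numbered 2 were the lowest of each fraction, also after normalisation, with log2 intensities of 12.57, 11.87 and 12.65 in negative and 12.61, 12.03 and 12.94 in positive arrays. Within assays TIMP1 was slightly higher in the positive fraction, by 0.04, 0.17 and 0.29 on the log2 scale. The mean difference of 0.16 ± 0.11 (SE, 95% interval -0.09 to 0.42) did not pass (limma adjusted p = 0.333). With no block the SE was 0.28 and the 95% interval -0.49 to 0.82, because the spread between assays then counts as error.

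**Figure D3:**
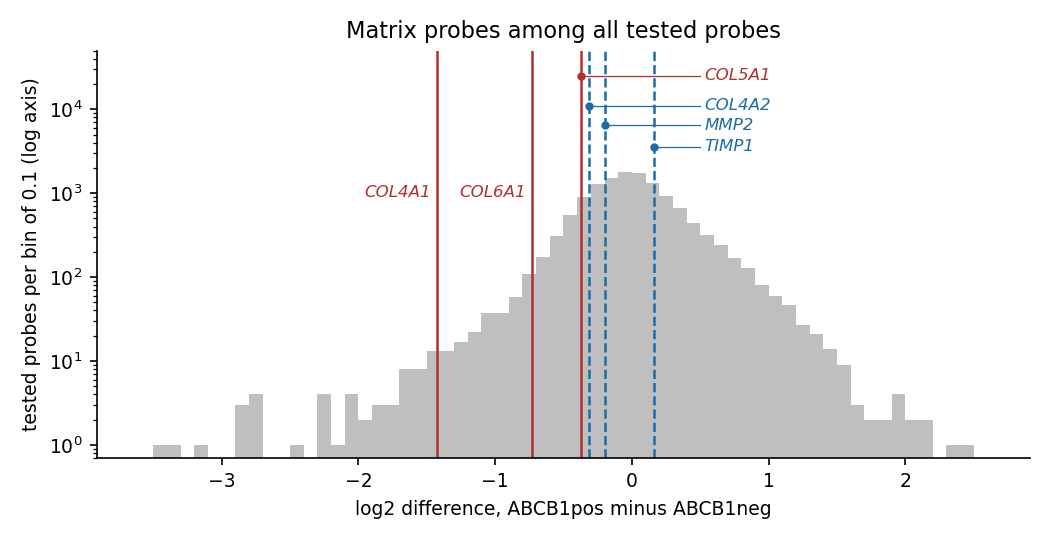
Number of tested probes (log axis) by log2 difference, positive minus negative, over all 13186 tested probes; vertical lines mark the 6 matrix probes, solid where limma's adjusted p was under 0.05 and dashed where not (COL5A1 was detected on negative arrays alone). COL4A1 at -1.43 and COL6A1 at -0.73 lie in the lower tail, while COL5A1, COL4A2, MMP2 and TIMP1 lie within the bulk of the distribution.

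The position of each probe in the whole distribution differed widely. Lower differences than that of COL6A1 were seen for 2.36% of tested probes, and for COL5A1, COL4A2, MMP2 and TIMP1 the shares were 12.5%, 16.04%, 27.7% and 72.7%. The 3 positive and 3 negative values did not overlap for COL4A1 and COL6A1 among the 5 probes detected in both fractions, and for 12.3% of all tested probes in that direction.

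Further genes of the matrix were read from 6 lists. These held other collagens, enzymes and chaperones of collagen folding and crosslinking, other matrix proteins, proteases, inhibitors and collagen receptors. Each gene was read by 1 probe, the tested one of highest mean normalised level over all arrays. Of 77 such genes on the array outside the probes above, 45 were tested, and 21 fell and 2 rose in ABCB1-positive cells (limma with the block), where 9.2% of all tested probes fell and 11.1% rose. Of the 45 genes 21 were lower with no overlap between the groups, against 12.3% of all tested probes, and 18 of these were among the 21 called. Of the called 21, 4 were detected on fewer than 3 positive arrays. With no block 9 of the 45 passed, all lower, where 5.15% of all tested probes passed and 1.65% were lower. The median log2 difference was -0.44, against -0.02 over all tested probes. These lists were also chosen with earlier results known, and no test of a list was made.

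Among enzymes and chaperones that hydroxylate, fold and crosslink collagen, 7 of 12 tested genes fell and 0 rose, against 9.2% and 11.1% of all tested probes. With no block 2 of the 12 passed, LOXL3 and PLOD1, against 1.65% of all tested probes in that direction. LOXL3, a lysyl oxidase family member that crosslinks collagen, had signals of 2787, 1020.1 and 2520.0 on negative and 253, 132 and 226 on positive arrays. It fell by 2.75 ± 0.17 on the log2 scale (SE, limma adjusted p = 0.000229). PLOD1, which hydroxylates collagen lysines, fell by 1.07 ± 0.12 on the log2 scale (SE, limma adjusted p = 0.00147). SERPINH1, the collagen-specific chaperone of the endoplasmic reticulum, fell by 0.77 ± 0.13 (SE, limma adjusted p = 0.00587), but its groups overlapped, and with no block the limma adjusted p was 0.331. PLOD2, P3H1, P4HA1 and P4HA2, hydroxylases of lysine or proline in collagen, made up the other called genes, and with no block their limma adjusted p were 0.0628, 0.152, 0.0701 and 0.0563. For CRTAP, a partner of prolyl 3-hydroxylation, the brighter probe did not pass (-0.33, limma adjusted p = 0.0912) and a dimmer one fell (-0.44, limma adjusted p = 0.0310).

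Of 10 other collagen genes tested, COL16A1 fell and 9 did not pass, a share close to the 9.2% of all tested probes that fell. Among the 9, the probes read for COL2A1, COL4A3, COL6A2, COL9A1, COL12A1 and COL13A1 were near background, with mean signals of at most 73.2 in either fraction. For these a miss does not show an unchanged level. COL4A3 was tested through its positive arrays alone. COL7A1, COL9A2 and COL9A3 were brighter and detected on all 6 arrays. COL16A1, a collagen that associates with fibrils, had signals of 407, 104 and 212 on negative and 49.5, 16.8 and 15.8 on positive arrays and fell by 1.45 ± 0.19 on the log2 scale (SE, limma adjusted p = 0.00226). It was detected on 1 of the 3 positive arrays. With no block its limma adjusted p was 0.0514. COL6A2, whose chain joins COL6A1 in type VI collagen, had 3 tested probes that disagreed. The one of highest mean normalised level did not pass (log2 difference 0.07, limma adjusted p = 0.705), and its signals of 37.7 to 61.4 were near background. The other two fell, by 0.47 and 0.54 on the log2 scale (limma adjusted p = 0.0237 and 0.0322), but each was detected on 1 of the 3 positive arrays, their groups overlapped, and with no block their limma adjusted p were 0.375 and 0.388. For COL9A1 the probe of highest mean level did not pass (0.03, limma adjusted p = 0.876). Another COL9A1 probe was tested through its negative arrays alone, with signals of 44.4, 25.0 and 103 there and of -6.70, -7.31 and -11.8 on the positive arrays, where it was not detected.

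All 3 other inhibitor genes tested fell, against 9.2% of all tested probes, beside TIMP1, which did not pass. TIMP3, an inhibitor that binds to the matrix, had signals of 1572, 263 and 1180.5 on negative and 166, 44.9 and 158 on positive arrays. TIMP3 fell by 2.09 ± 0.23 on the log2 scale (SE, limma adjusted p = 0.00141), and with no block the limma adjusted p was 0.063. SERPINE2, an inhibitor of serine proteases, fell by 0.99 ± 0.11 on the log2 scale (SE, limma adjusted p = 0.00124). TIMP2, which blocks MMP2 and also takes part in its activation, fell by 0.83 ± 0.11 (SE, limma adjusted p = 0.00233), while another TIMP2 probe gave 0.25 and did not pass (limma adjusted p = 0.448). A difference between TIMP1 and these genes in their response was not tested.

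**Figure D4:**
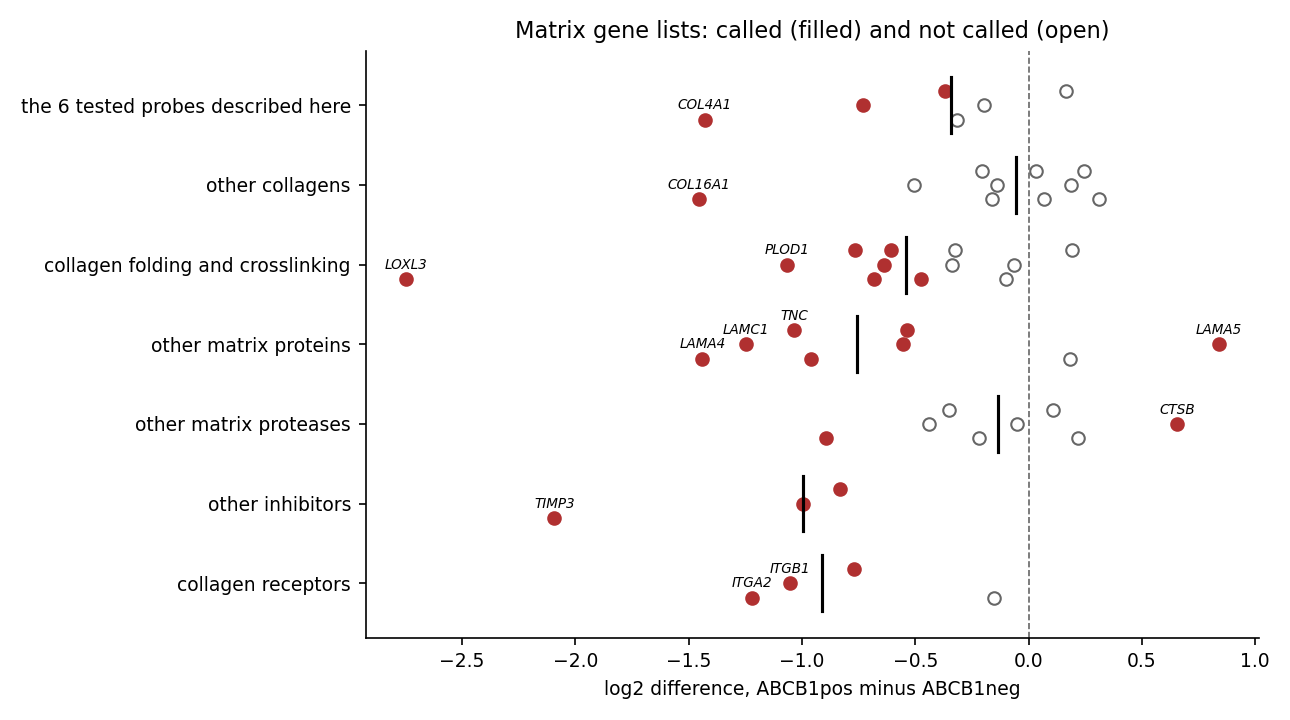
Log2 difference, positive minus negative, of the 6 tested probes described here (top row) and of 45 tested genes in 6 matrix gene lists; filled points passed limma's adjusted p under 0.05 with the block, open points did not, and black bars are medians. Called genes lie to the left of 0 in every list except for LAMA5 and CTSB. The top row and its median include COL5A1, which was tested through its negative arrays alone.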

How the data were processed

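RNA of 6 sorted fractions was labelled with biotin and hybridised to bead arrays, per the labels' protocols. The deposited table gives each of 24526 probes an intensity and, per the file headers, a detection p-value on every array. Some deposited intensity values are negative, as after background subtraction, and the scanner software is not given in the sources used here. A further table from the authors holds the same intensities times 1 factor per array, found by comparing both tables, so that each array has a mean of 787.

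Signals were corrected with normexp (offset 50), quantile-normalised and log2-transformed, and 13186 probes with a detection p under 0.05 on at least 3 arrays were tested with lmFit and eBayes (limma 3.58.1, R 4.3.3). Two-sided p-values were adjusted by the Benjamini-Hochberg method across the 13186 probes, with a threshold of 0.05. The replicate number was a block. The labels do not state that equal numbers are the same assay. The rule that named the probes pairs samples by number, and the design text gives 3 independent assays. Same-numbered arrays deviated together from their group means (r = 0.48, 0.64 and 0.48 across probes). Where differences within or between assays are given, the assay is this replicate number. The procedure was run on data simulated from its own fitted model, which cannot test whether that model holds for these arrays. Precision is limited by having 3 arrays in each group, all of 1 line. With the block, p-values measure how the differences within assays vary. eBayes draws the variance of each probe towards that of all tested probes, so SEs, intervals and p-values rest in part on other probes. The plain paired t-test, which uses the variance of each probe alone, called 0 of the 13186 probes after adjustment.

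Gene names came from the platform annotation (21834 probes with 1 gene, 0 with several, 2692 with none), and positions and sequences from RefSeq tables of GRCh38.p14, whose promoter windows span 250 bases before to 50 after a start. Where a probe lies within its gene was not used here. For each list the 3 largest called genes per direction were named; other called genes and probes that disagreed were named after their values were seen. The probes and lists were chosen with earlier results of these data known. Alternatives covered the block, background correction, scaling, filter, array weights, variance prior, test, threshold and left-out arrays.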

Additional observations from a re-analysis of the deposited data

How the results depend on the processing

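COL4A1 passed in every alternative fit but the plain paired t-test (-1.43, adjusted p = 0.170), which called 0 of the 13186 probes after adjustment, against 2891 at an unadjusted p under 0.05. That test also left COL6A1 at -0.73 (adjusted p = 0.228) and COL5A1 at -0.37 (0.161), and called 0 of the 6 matrix probes and 0 genes of the matrix lists. COL5A1, tested through its negative arrays alone, was also lost with no replicate block (-0.37), median scaling (-0.35) and 75th percentile scaling (-0.27). COL4A2 passed with array weights (-0.38, limma adjusted p = 0.0119) and on the authors' scaled values (-0.42). MMP2 and TIMP1 passed in none of the fits run. Leaving out a number under the block, or 1 array with no block, gave log2 differences of -0.49 to -0.17 for COL4A2, -0.42 to -0.32 for COL5A1, -0.88 to -0.57 for COL6A1 and -0.0824 to 0.41 for TIMP1. TIMP1 was below 0 without positive replicate 3 (-0.04) and without negative replicate 2 (-0.0824), both with no block.

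Each set of 3 counts below lists calls in either direction, then higher, then lower. Over all probes they were 2682, 1469 and 1213, and with no replicate block 679, 462 and 217. Array weights gave 5513, 2727 and 2786, an adjusted p under 0.01 gave 1067, 673 and 394, and no background correction gave 789 lower. Leaving out a replicate number under the block gave 1333 to 2732, 856 to 1435 and 477 to 1297. Leaving out 1 array with no block gave 20 to 1348, 8 to 820 and 12 to 528, with the lowest values without positive replicate 1. Of the 6 matrix probes, COL5A1 included, 1 to 3 were called with arrays left out in either way, all lower. Of the matrix lists 9, 0 and 9 genes were called with no block, and 1 to 23, 0 to 2 and 1 to 22 with arrays left out. Higher list genes numbered 1 with no background correction, no filter or an adjusted p under 0.01. The share of higher calls, 54.8%, was 38.7% on the authors' scaled values, where the median log2 difference of all probes was -0.11 against -0.02. For none of these was the cause tested. For the dim COL5A1 the size of the log2 difference moved with the background correction, from -0.37 to -0.57 with an offset of 16, -0.53 with neqc and -1.73 with none.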

Other observations

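Of 8 tested genes for matrix proteins other than collagens, 6 fell and 1, LAMA5, rose in ABCB1-positive cells, against 9.2% and 11.1% of all tested probes. With no block 3 of the 8 passed, LAMA4, LAMC1 and TNC, all lower, against 1.65% of all tested probes in that direction. LAMA4, a laminin chain of basement membranes, had signals of 186, 184 and 319 on negative and 22.9, 24.4 and 34.9 on positive arrays, and fell by 1.44 ± 0.11 on the log2 scale (SE, limma adjusted p = 0.000491). It was near the background on positive arrays and detected on 2 of the 3. Across the alternative fits its log2 difference ran from -2.82 to -1.38. LAMC1, the laminin chain shared by most laminins, fell by 1.25 ± 0.12 (SE, limma adjusted p = 0.000978), and TNC, tenascin C, by 1.03 ± 0.16 (SE, limma adjusted p = 0.00441). SPARC, FN1 (fibronectin) and LAMB1 were the other called genes, with log2 differences of -0.96, -0.55 and -0.54, and with no block their limma adjusted p were 0.0893, 0.193 and 0.191. The LAMB1 groups overlapped, and FN1 was detected on 2 of the 3 positive arrays. LAMA5, another laminin alpha chain, rose by 0.84 ± 0.11 on the log2 scale (SE, limma adjusted p = 0.00226), and with no block its limma adjusted p was 0.125. Of 4 tested collagen receptor genes 3 fell, against 9.2% of all tested probes. ITGA2 and ITGA1, the alpha chains of collagen-binding integrins, fell by 1.22 ± 0.14 and 0.77 ± 0.15 on the log2 scale (SE, limma adjusted p = 0.00142 and 0.0115), and their beta partner ITGB1 by 1.05 ± 0.16 (SE, limma adjusted p = 0.00453). With no block the limma adjusted p of ITGA1 was 0.0528, and it was detected on 1 of the 3 positive arrays. The kinase receptor DDR1 did not pass (-0.15, limma adjusted p = 0.440).

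Of 8 protease genes tested beside MMP2, 1 fell and 1 rose, shares close to the 9.2% and 11.1% of all tested probes. PLAT, tissue plasminogen activator, fell by 0.89 ± 0.20 on the log2 scale (SE, limma adjusted p = 0.0185), and CTSB, the lysosomal protease cathepsin B, rose by 0.65 ± 0.18 (SE, limma adjusted p = 0.0387). The PLAT groups overlapped, and with no block the limma adjusted p was 0.436 for PLAT and 0.0995 for CTSB. Under the block, leaving out replicate 1 ended both calls (0.0677 for PLAT and 0.0817 for CTSB), and leaving out replicate 3 ended that of CTSB (0.102). MMP14, the membrane protease that activates MMP2, did not pass (0.11, limma adjusted p = 0.515).

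The probes whose values across the 6 arrays were most like the mean of COL4A1, COL6A1 and COL5A1, each centred, were those of QTMAN, TFAP2C, PRMT6, GNAS and SRPX, with Pearson r from 0.992 to 0.995 over 6 arrays that share 3 assays. Of 13180 other tested probes, 127 had r of at least 0.95. The log2 differences of these 5 were -0.39, -1.19, -0.46, -0.48 and -0.70 in that order. The mean was taken over probes that had passed the test in these same data, COL5A1 through its negative arrays alone. The mean profile was therefore high in negative and low in positive arrays, and the likeness of the 5 follows in part from that choice. QTMAN was dim, with signals of 75.5, 59.4 and 98.2 on negative and 32.3, 29.6 and 38.4 on positive arrays.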
